A study of Mus musculus with 8 samples.

Results

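Probes for RefSeq non-coding RNAs, those whose accession starts with NR_, were taken from the arrays of the derivation group by that prefix alone. There were 771 of them among 55681 probes that are not controls. They stood for 652 accessions, and 701 probes were matched by accession to 591 gene symbols of the GRCm38.p6 annotation. The other 70 probes had no symbol and are named by their accession. An accession of this kind marks a transcript that RefSeq held as non-coding when the array was designed. In the annotation used here 13 of the probes belong to genes of protein-coding type. On at least 4 of the 8 arrays, 430 probes (55.8%) were well above background and were retained, against 34038 of all probes (61.1%). Of the rest, 259 were well above background on no array and 82 on 1 to 3 arrays. The retained ones comprised 364 probes above background on all 8 arrays and 66 on 4 to 7.

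The mice were male and of C57BL\6 background. MI mice (n = 4) had a permanent occlusion of the anterior interventricular artery, sham-operated mice (n = 4) had the operation without it, and cardiac RNA was taken 24 hours later. The labels give the tissue as the ventricles, while the study's methods speak of the excised heart. Each mouse had 1 array. The mice were adult, their age in weeks is not given in the sources used here, and no allele or agent distinguished the groups.

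A long non-coding RNA (lncRNA) can act as the transcript itself, or it can be the precursor from which smaller RNAs are cut. Host transcripts of the second kind carry a microRNA or a small nucleolar RNA in an exon or intron, and the rest of the transcript is often degraded. An antisense transcript is read from the strand opposite a coding gene. A pseudogene is a copy of a gene that has lost its coding function but may still be transcribed, and its probe may also bind RNA of the parent gene. The probes were placed in these classes by name and by annotation: 28 for host transcripts, 46 for antisense transcripts, 218 for pseudogenes, 16 for small RNAs such as snRNAs and RNase P RNA, and 463 for other transcripts, 70 of which had no symbol. Host transcripts were recognised by symbol or by a small RNA annotated inside their span, so that hosts known only from elsewhere are among the others. Classes and lists describe the probes and were not tested as sets.

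The microRNAs that lie in or next to the host transcripts described later are shown first, because the arrays measured the hosts and not the microRNAs. Mature sequences are from RefSeq (GRCm38.p6), written 5′ to 3′, and capitals mark the seed, bases 2 to 8, through which a microRNA pairs with its targets.
miR-22-3p, in Mir22hg: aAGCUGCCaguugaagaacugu
miR-223-3p, in F630028O10Rik: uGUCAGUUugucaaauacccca
miR-92a-3p, in Mir17hg: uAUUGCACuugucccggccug
miR-17-5p, beside Mir17hg: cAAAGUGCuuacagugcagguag
miR-20a-5p, beside Mir17hg: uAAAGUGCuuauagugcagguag
miR-18a-5p, beside Mir17hg: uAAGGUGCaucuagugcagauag
miR-19a-3p, beside Mir17hg: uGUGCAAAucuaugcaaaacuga
miR-19b-3p, beside Mir17hg: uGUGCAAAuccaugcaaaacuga
miR-100-5p, in Mir100hg: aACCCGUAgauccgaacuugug
miR-125b-5p, in Mir100hg: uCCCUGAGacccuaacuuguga
miR-99a-5p, 40512 bases outside the annotated span of Mir99ahg: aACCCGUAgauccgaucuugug
miR-17-5p and miR-20a-5p share the seed AAAGUGC, which 7 mature microRNA names of the table carry. miR-19a-3p and miR-19b-3p share GUGCAAA, and miR-100-5p and miR-99a-5p share ACCCGUA. The seeds of miR-22-3p and miR-223-3p are each carried by 1 name among 1679. In this annotation the span of Mir17hg holds only the miR-92a-1 hairpin, and the other members of the cluster shown lie 10 to 684 bases before its first base.

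Promoter windows are shown for 3 lncRNAs that were higher in MI mice. Each window runs from 250 bases before to 50 bases after the annotated start (RefSeq, GRCm38.p6), and capitals mark the matches of 7 short motifs searched on both strands.
Mirt1, chr19:53464747-53465046, minus strand: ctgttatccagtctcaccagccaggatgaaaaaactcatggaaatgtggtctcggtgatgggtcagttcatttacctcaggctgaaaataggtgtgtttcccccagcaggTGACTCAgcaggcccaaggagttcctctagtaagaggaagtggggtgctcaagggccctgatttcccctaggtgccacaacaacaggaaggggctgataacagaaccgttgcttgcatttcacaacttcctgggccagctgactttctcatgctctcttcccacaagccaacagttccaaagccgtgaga
Mir22hg, chr11:75461289-75461588, plus strand: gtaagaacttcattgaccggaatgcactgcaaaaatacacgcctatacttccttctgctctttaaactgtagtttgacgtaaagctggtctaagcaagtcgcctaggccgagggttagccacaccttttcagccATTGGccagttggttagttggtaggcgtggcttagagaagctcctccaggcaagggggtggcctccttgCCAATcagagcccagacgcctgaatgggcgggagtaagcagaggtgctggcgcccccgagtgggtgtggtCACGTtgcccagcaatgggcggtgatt
F630028O10Rik, chrX:96239676-96239975, plus strand: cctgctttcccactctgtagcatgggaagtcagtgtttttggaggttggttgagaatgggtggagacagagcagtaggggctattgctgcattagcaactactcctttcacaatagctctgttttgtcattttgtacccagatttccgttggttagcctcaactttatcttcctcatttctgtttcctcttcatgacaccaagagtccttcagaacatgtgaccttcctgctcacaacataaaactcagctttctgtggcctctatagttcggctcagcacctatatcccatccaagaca
The window of Mirt1 held 1 AP-1 motif (TGANTCA) beginning 140 bases before the start. The same motif was present in 7.81% of the 32851 promoter windows of the table. The window of Mir22hg held a CCAAT box (CCAAT) on each strand, present in 37.4% of windows, and 1 hypoxia response core (ACGTG), present in 19.6%. None of the 7 motifs, which also included the CRE (TGACGTCA), the TATA box (TATAAA), the E-box (CACGTG, which contains ACGTG) and the STAT motif (TTCNNNGAA), matched the window of F630028O10Rik. These windows are descriptions of sequence, and binding was not measured. Of 19 symbols with a called probe, 9 had a window in the table. The AP-1 motif was present in those of Mirt1 and Morrbid.

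The sequences of the array's own probes were not used here. Quantitative PCR primers, written 5′ to 3′, are shown for transcripts with a called probe, since they define the transcript meant. They are the designed primers listed in the supplement.
Mirt1 forward: cttgttgtctaagtgagta
Mirt1 reverse: ttaatcgttcctctagttg
NR_002860 (VL30 in the study) forward: acgttctcaagatagataa
NR_002860 reverse: acacacaatggaattttc
Speer5-ps1 forward: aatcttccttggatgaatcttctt
Speer5-ps1 reverse: cagtcgcctcagttctct
1810014B01Rik forward: gctgagtttaagtatgtc
1810014B01Rik reverse: ctttccttcatttctctc

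The share of spots well above background was 61.4% to 66.4% in MI mice. It was 65.8% in sham-operated mouse 1 and 58.6% to 59.1% in sham-operated mice 2 to 4, below every MI mouse. No spot of an NR probe was saturated, and correlations between arrays of the same group were 0.990 to 0.995. A single slide carried all arrays, and each of its 2 array rows held 2 mice of either group. Cardiomyocyte markers were bright in all mice and 0 of 8 were called. The atrial markers Sln, Myl7 and Myl4 were bright as well in 7 of the 8 mice, although the label is ventricles. Sham-operated mouse 4 stood apart from them, with Sln at 8.79 against 13.8 to 15.8 in the other 7, Myl7 at 8.52 against 12.9 to 14.5 and Myl4 at 11.8 against 15.2 to 16.8. None of the 3 was called (adjusted p = 0.16 to 0.42). Without this mouse 16 NR probes were called higher and 5 lower in place of 18 and 4. Of 4 smooth muscle markers, Acta2 was called higher (log2 fold change 1.46, adjusted p = 0.00024) and the other 3 were not. Among 8 neutrophil markers, 7 were retained and 6 were called higher in MI mice. Their summed level (the sum over the markers of 2 to the power of the log2 value) was 203746 to 315830 in MI mice and 61390 to 80254 in sham-operated mice. S100a8, S100a9, Retnlg, Cxcr2 and Mmp8 were above background in all 8 mice, and Csf3r differed by 0.08 on the log2 scale (adjusted p = 0.88). Of the monocyte and macrophage markers, 2 of 7 retained were called higher, Cd14 and Ccr2, with summed levels of 16550 to 23547 in MI mice and 12421 to 19370 in sham-operated mice. The part of cell composition in the results that follow was not tested. In tissue RNA, more cells of a type and more RNA per cell cannot be told apart.

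Between MI and sham-operated mice 22 NR probes were called, 18 higher and 4 lower in MI mice. The call required a fold change over 2 and an adjusted p under 0.05 in limma, with the Benjamini-Hochberg adjustment over all 34038 retained probes. This is 5.12% of the retained NR probes, and 3.48% of all retained probes were called (3.07% higher and 0.405% lower). At an adjusted p under 0.05 with any fold change, 39 NR probes were higher and 5 lower (10.2%), against 6.3% higher and 1.31% lower among all retained probes. MI mice were all above sham-operated mice in 51 NR probes (11.9%) and all below in 15 (3.49%), against 8.46% and 2.7% of all retained probes. Probes of protein-coding transcripts with an NM_ accession were called in 4.41%. The median log2 fold change was 0.16 over the retained NR probes and 0.12 over all retained probes. When the arrays were scaled to their 75th percentile instead, the median over all probes moved by 0.14 to -0.02, 19 NR probes were called higher and 8 lower (background 3.06% and 1.18%, together 4.24% of all probes), and the share of higher among the calls went from 81.8% to 70.4%. In the deposited values, which leave out spots below background, 10 were called higher and 4 lower (background 2.61% and 0.377%, together 2.98%). All fold changes given here are to be read against that median. Among the called probes, 4 were well above background in MI mice only and 14 of the 18 higher ones in at least 1 mouse of each group. The 4 passed the filter through the MI mice alone, so they had to differ, and their adjusted p rests on sham signals below background, to which the additive constant of each array contributes. Where each of them is described, the bound on the fold is given in place of a fitted change. The figures and the ranges over a class or family include their fitted values. Among the transcripts that the study lists as changed on these same mice, 12 have an array probe named by an NR accession. Each of the 12 had a called probe here, which is no independent evidence of its direction. The study matched further listed transcripts to NR accessions through probes with other names. For 1 of these, 9430008C03Rik (Snhg17 in the annotation used here), the NR probe was retained and not called.

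**Figure D1:**
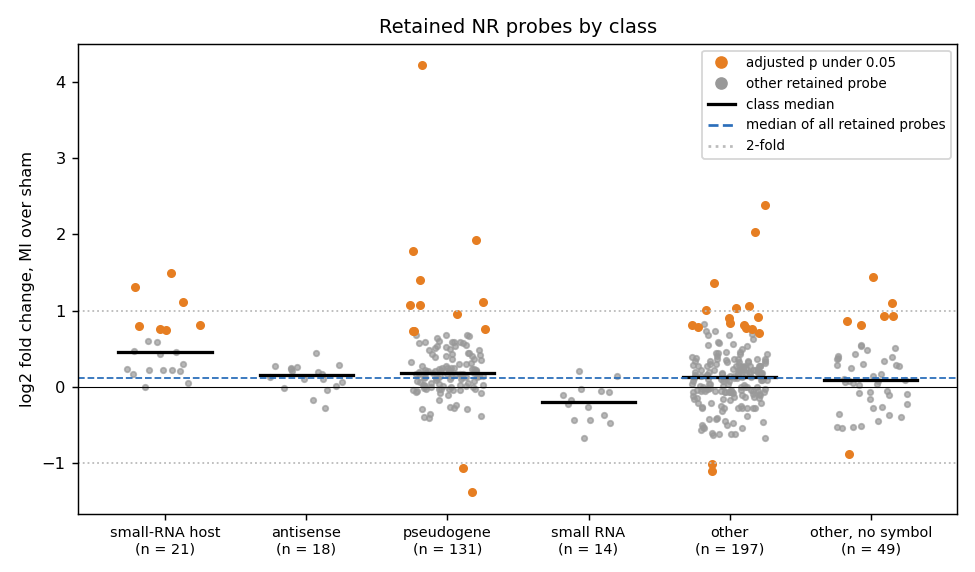
Log2 fold change (MI over sham-operated mice, vertical axis) of each of the 430 retained NR probes by class, with the class median as a bar and the median of all 34038 retained probes as a dashed line. Host transcripts lie mostly above the dashed line (19 of 21), small RNAs mostly below it (12 of 14), and probes with an adjusted p under 0.05 (orange) are found in 4 of the 6 classes.

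The probe with the largest fold change was that of Sprr2g. This transcribed pseudogene belongs to the small proline-rich family, whose coding members are envelope proteins of stratified epithelia. The log2 signal was 8.17, 7.20, 8.11 and 8.48 in MI mice 1 to 4 and 3.94, 4.34, 2.96 and 3.84 in sham-operated mice 1 to 4. It was well above background in all MI mice and in no sham-operated mouse. The level of the latter is therefore a bound, and the signal was at least 10.8-fold higher in MI mice (adjusted p = 4.53e-11 in limma, and 0.0034 with a new vsn fit). Such bounds set the mean of the MI mice against the lowest signal of a probe well above background on each sham array, or the probe's own signal there if that was higher. The neighbouring coding genes Sprr2f and Sprr2h had no retained probe. The probe of Sprr2j-ps was above background on no array.

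Mirt1, the lncRNA that the study named MIRT1, had 2 retained probes. The brighter one gave 8.36, 9.14, 9.15 and 8.69 in MI mice and 6.61, 6.31, 6.37 and 6.50 in sham-operated mice. The groups were far apart, with a 5.24-fold higher mean in MI mice (log2 fold change 2.39 ± 0.22 SE, adjusted p = 1.78e-08). The dimmer probe was above background in 4 MI mice and in 1 sham-operated mouse, at 5.09, 4.99, 5.17 and 5.16 against 4.81, 4.34, 3.88 and 4.22. Its groups did not overlap either, but its log2 fold change was 0.79 ± 0.22 (adjusted p = 0.022), under the 2-fold limit. Values of 3.01 to 4.36 are the level of NR probes that were above background nowhere (medians per mouse), so the dimmer probe lay close to it. By quantitative PCR the study saw MIRT1 higher in MI mice, both in these mice and in an independent group.

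Other lncRNAs were higher in MI mice by smaller amounts. Gm8884 gave 6.86, 7.70, 7.48 and 7.07 in MI mice and 6.09, 5.69, 5.84 and 6.06 in sham-operated mice, a 2.56-fold difference of the means (log2 1.36 ± 0.22, adjusted p = 0.00012). 6330407A03Rik, which overlaps the gene of the tyrosine kinase Lyn in the annotation, gave 6.25, 6.49, 6.57 and 6.71 against 5.70, 5.69, 5.49 and 5.13. Its groups were separate and its fold change of 2.01 was just past the limit (adjusted p = 0.0023). The call was lost without MI mouse 3, MI mouse 4, sham-operated mouse 3 or sham-operated mouse 4. Lyn itself differed by 0.40 on the log2 scale (adjusted p = 0.29).

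Pvt1 and Morrbid each had a probe called higher as well. These probes were described after their values were seen. Pvt1 lies next to the Myc gene. One of its probes was called, with 8.55, 7.91, 8.49 and 8.11 in MI mice and 7.41, 7.41, 7.27 and 6.83 in sham-operated mice (log2 fold change 1.03 ± 0.22, adjusted p = 0.0025). The other and brighter probe of the same accession gave 8.34, 7.71, 8.31 and 7.91 against 7.98, 7.51, 8.01 and 7.66, overlapping groups (0.28 ± 0.22, adjusted p = 0.53). The 2 probes thus disagreed. Morrbid, a lncRNA that controls the lifespan of neutrophils and other short-lived myeloid cells, gave 5.52, 5.15, 5.03 and 5.65 in MI mice against 4.70, 4.57, 3.34 and 4.51. It was above background in 1 sham-operated mouse, and the low value of sham-operated mouse 3 enters its log2 fold change of 1.06 ± 0.26 (adjusted p = 0.0088). The called neutrophil markers described above were also higher in MI mice as a group. Within the MI mice Morrbid was highest in MI mouse 4, where each of those markers was lowest. The part of neutrophils in its change was not tested.

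A pair of accessions without a symbol in the annotation were higher. NR_002860, called VL30 by the study after a family of retrovirus-like elements, had 3 retained probes. The called one gave 13.05, 12.27, 13.47 and 12.54 in MI mice and 11.52, 10.97, 11.70 and 11.38 in sham-operated mice, with no overlap (2.71-fold, log2 1.44 ± 0.25, adjusted p = 0.00022). The others had log2 fold changes of 0.93 ± 0.25 (adjusted p = 0.020) and 0.92 ± 0.26 (adjusted p = 0.029), with overlapping groups. All 3 were therefore higher at the adjusted p, and 1 was past 2-fold. Elements of this family have many near-identical copies, so its signal cannot be assigned to 1 locus. NR_033578, Gm15645 in the study, gave 10.79, 10.50, 10.90 and 10.67 against 9.75, 9.28, 9.64 and 9.81 (log2 1.09 ± 0.21, adjusted p = 0.00078). Its call was lost without sham-operated mouse 2. Below 2-fold, 2 of the 3 probes of NR_002840 were higher by 0.87 ± 0.20 (adjusted p = 0.0051) and 0.81 ± 0.22 (adjusted p = 0.018) on the log2 scale, and the other stood at 0.28 ± 0.20 (adjusted p = 0.50).

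**Figure D2:**
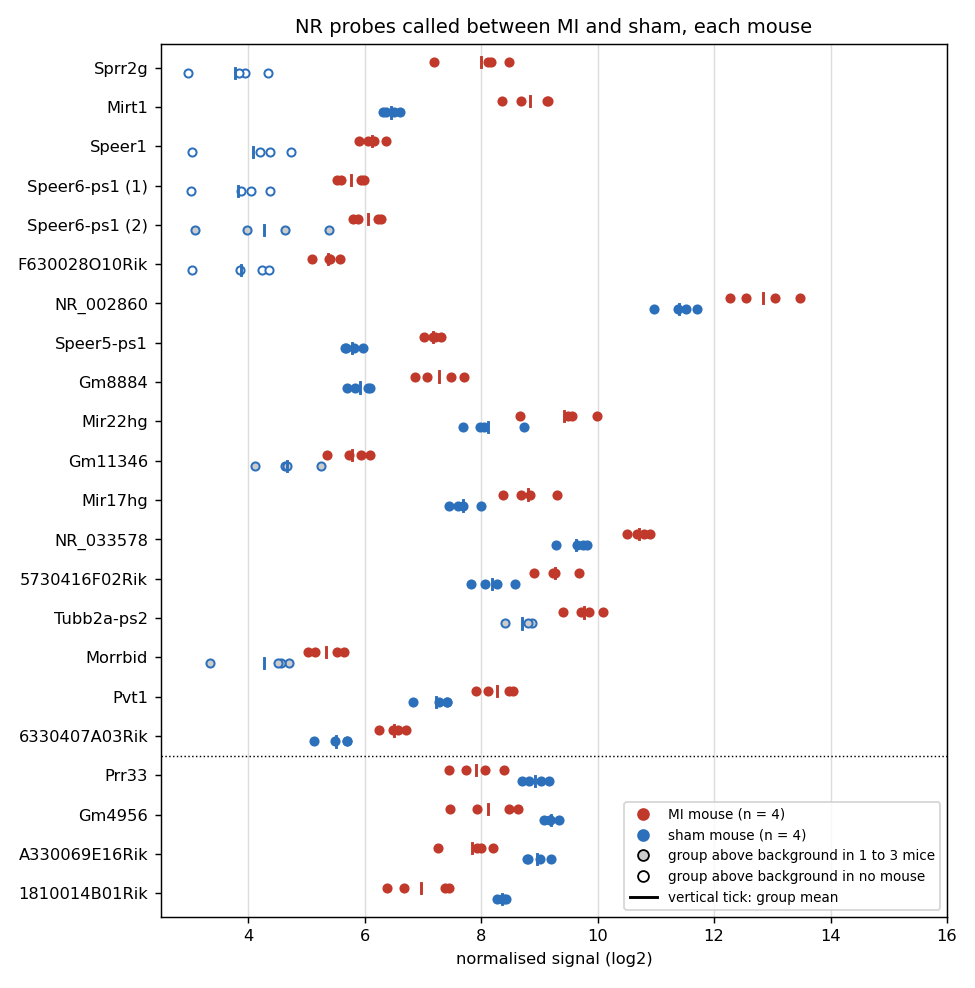
Normalised log2 signal (horizontal axis) of the 22 called NR probes in each of the 4 MI mice (red) and 4 sham-operated mice (blue), ordered by fold change, with group means as ticks and open points for groups above background in no mouse. Groups are separate in all probes but that of Mir22hg, where MI mouse 4 (8.66) lies below sham-operated mouse 1 (8.73), and Tubb2a-ps2 has 3 sham-operated mice because the spot of the fourth had an outlier mark.

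Host transcripts of small RNAs stood at a median log2 fold change of 0.46 over 21 retained probes, with 20 of them positive. Of these probes 3 were called higher and 7 were higher at the adjusted p, against 3.07% and 6.3% of all retained probes. F630028O10Rik and Mir100hg are among the 7 and were above background in MI mice only. Of the 19 probes above background in both groups, 2 were called higher and 5 were higher at the adjusted p. None was lower at the adjusted p. The class lay above the median of all retained probes in 19 of 21 probes under the normalisation used and under scaling to the 75th percentile, quantile normalisation and normexp correction. All 3 called transcripts carry microRNAs.

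F630028O10Rik is the host of miR-223, a microRNA of neutrophils and other myeloid cells. Its probe was dim, with 5.10, 5.38, 5.41 and 5.58 in MI mice and 4.25, 4.36, 3.03 and 3.86 in sham-operated mice. It was well above background in every MI mouse and in no sham-operated mouse, so the signal was at least 1.76-fold higher in MI mice (adjusted p = 0.00016, and 0.19 with the new vsn fit, where the call is lost). The coding neighbour Vsig4, a receptor of resident macrophages, differed by -0.10 (adjusted p = 0.88). The called neutrophil markers were also higher in MI mice as a group. Within the MI mice this probe was highest in MI mouse 4, where each of those markers was lowest. The part of neutrophils in its change was not tested.

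Mir22hg carries miR-22, which is abundant in heart muscle. It gave 9.56, 9.49, 9.98 and 8.66 in MI mice and 8.73, 7.68, 8.04 and 7.99 in sham-operated mice. MI mouse 4 was the low one of its group and sham-operated mouse 1 the high one, and these 2 overlapped. The mean was 2.49-fold higher in MI mice (log2 1.31 ± 0.26, adjusted p = 0.0013 in limma), and an exact two-sided permutation test of this value gave p = 0.057. For the other called probes measured in all 8 mice that test gave 0.029, the smallest p that 70 splits of 8 mice allow. The coding neighbours Tlcd2 and Wdr81 differed by 0.11 and -0.31 with overlapping groups.

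Mir17hg is the host of the miR-17 to miR-92 cluster, which is known for promoting proliferation. Its signal was 8.85, 8.68, 9.30 and 8.37 in MI mice and 7.70, 7.45, 8.0 and 7.61 in sham-operated mice. The groups were separate, with a mean 2.16-fold higher in MI mice (log2 1.11 ± 0.22, adjusted p = 0.0015). Without MI mouse 3 the log2 fold change was 0.94, under the limit.

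Among hosts below 2-fold, Mir100hg, which carries miR-100, a let-7 and miR-125b, was above background in MI mice only. It stood at 4.92, 4.74, 5.07 and 4.93 against 4.43, 4.33, 3.85 and 3.89, at least 1.29-fold higher (adjusted p = 0.017, and 0.67 with the new vsn fit). Its relative Mir99ahg, named for miR-99a, which shares the seed of miR-100, differed by 0.59 ± 0.20 with separate groups and did not pass the test (adjusted p = 0.079). Mirg, a host of imprinted microRNAs next to Meg3, was higher by 0.74 ± 0.22 (adjusted p = 0.032). Snhg hosts carry small nucleolar RNAs that guide the modification of ribosomal RNA. Of these, Snhg1 was higher by 0.76 ± 0.22 (adjusted p = 0.034) and 1 of 2 probes of Snhg16 by 0.81 ± 0.21 (adjusted p = 0.013). The second probe of Snhg16 stood at 0.60 ± 0.22 (adjusted p = 0.098). Snhg3, Snhg6, Snhg7, Snhg10, Snhg12 and Snhg17 ranged from 0.20 to 0.46, none past the test. Dleu2, which holds miR-15a and miR-16-1 in its span, stood at 0.00, and Dnm3os, from the strand that gives miR-199a and miR-214, at 0.04.

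**Figure D3:**
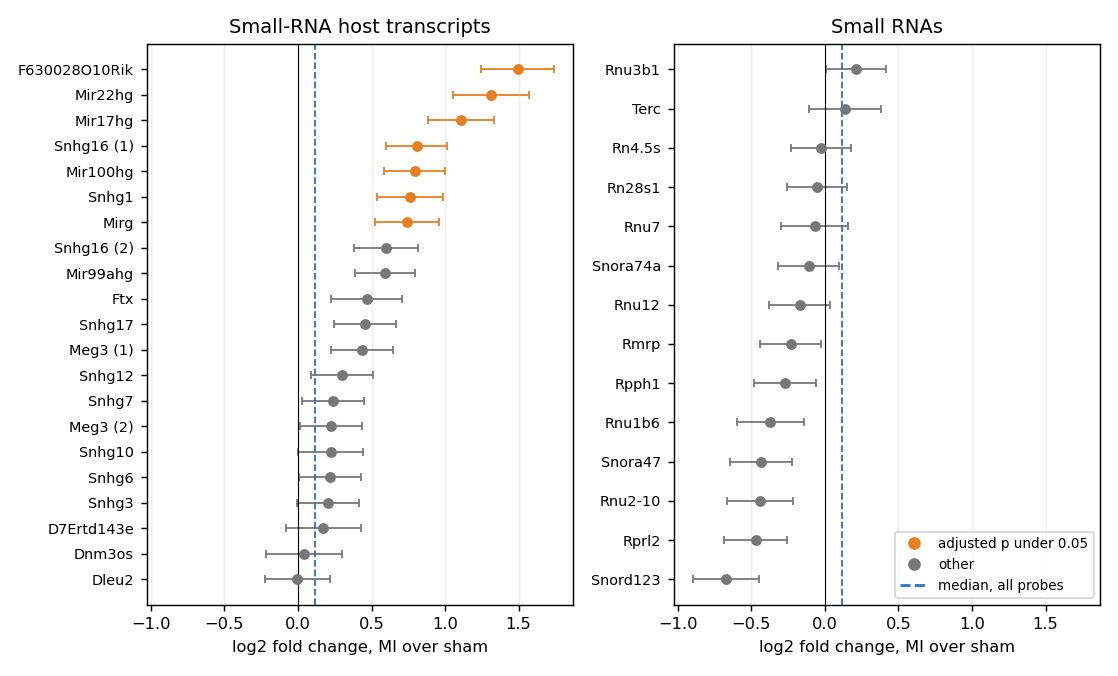
Log2 fold change (MI over sham-operated mice, horizontal axis) with its standard error for the 21 retained probes of small-RNA host transcripts (left) and the 14 of small RNAs (right), n = 4 mice a group. The 7 hosts that pass the adjusted p (orange) run from Mirg at 0.74 to F630028O10Rik at 1.49 (a fitted value of a probe above background in MI mice only). No small RNA passes, the lowest being Snord123 at -0.67.

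The small RNAs themselves had a median log2 fold change of -0.20 over 14 retained probes, with 12 negative. No small RNA passed the adjusted p in limma or SAM, and 2 had an unadjusted p under 0.05 in limma. Snord123, a small nucleolar RNA, had separate groups, with 9.80, 9.0, 9.67 and 9.96 in MI mice and 10.31, 10.33, 10.48 and 10.01 in sham-operated mice (-0.67 ± 0.22, adjusted p = 0.068). Rprl2 and Rpph1, RNAs of RNase P, stood at -0.47 and -0.27 (adjusted p = 0.21 and 0.53). Rmrp, the RNA of RNase MRP, stood at -0.23, the spliceosomal Rnu1b6 and Rnu2-10 at -0.37 and -0.44, and Terc, the RNA of telomerase, at 0.14. The class lay below the median of all retained probes in 12 of 14 probes under all 7 normalisations computed.

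Among pseudogenes, 131 of 218 probes were retained, and 7 were called higher and 2 lower (6.87%, against 3.48% of all retained probes, 3.07% higher and 0.405% lower). Of the 7, 5 were above background in at least 1 mouse of each group. Besides Sprr2g, 3 of the 7 were probes of the Speer family. The coding members of this family are glutamate-rich proteins of the testis, and its copies are similar enough that a probe may bind several of them. The family was looked at as a whole after its values were seen. Of 10 probes for 6 Speer genes 8 were retained, all with a positive fold change (0.25 to 2.03), a direction that held in all 8 under 6 normalisations and in the 6 that had a fold change in the deposited values. Of the 8, 6 were higher at the adjusted p and 4 were called, against 6.3% and 3.07% of all retained probes, and 2 of the 4 were above background in MI mice only. The direction of those 2 was set by the filter, and the 2.03 is the fitted value of 1 of them, Speer1.

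Speer6-ps1 had 2 called probes. The first gave 5.59, 5.94, 5.52 and 6.00 in MI mice and, below background, 4.04, 4.38, 3.02 and 3.87 in sham-operated mice, at least 2.31-fold higher (adjusted p = 3.98e-06, and 0.046 with the new vsn fit, under 2-fold). The second gave 5.79, 5.89, 6.29 and 6.23 against 3.98, 4.63, 3.08 and 5.39, with 1 sham-operated mouse above background (1.78 ± 0.31, adjusted p = 0.00033). In the deposited values, which hold only that sham-operated mouse, the log2 fold change was 0.66. With the new vsn fit it was 0.26 (adjusted p = 0.087), and the call is lost. The second probe separated the groups. The first passed the filter through the MI mice alone, so its groups had to differ. Speer1, now of protein-coding type and so counted among other transcripts, gave 6.17, 6.05, 5.90 and 6.37 against 4.38, 4.74, 3.04 and 4.20, below background in all sham-operated mice. It was at least 2.97-fold higher (adjusted p = 6.38e-06, and 0.021 with the new vsn fit, under 2-fold), and its second probe, above background in all mice, was higher by 0.83 ± 0.21 (adjusted p = 0.010). Speer5-ps1, above background in all 8 mice, gave 7.01, 7.31, 7.21 and 7.17 against 5.66, 5.82, 5.68 and 5.97, a 2.63-fold difference with tight groups (log2 1.40 ± 0.20, adjusted p = 2.22e-05). Its other probes stood at 0.76 (adjusted p = 0.017) and 0.49 (adjusted p = 0.18). By quantitative PCR on these same 8 mice, the study saw a difference for Speer5-ps1 that did not reach statistical significance. In the same mice it reported differential expression by this method for Mirt1, NR_002860, 1810014B01Rik and 9430008C03Rik (Snhg17).

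The remaining pseudogenes called higher were close to 2-fold. Gm11346 gave 5.93, 5.73, 6.09 and 5.36 in MI mice and 5.25, 4.62, 4.11 and 4.67 in sham-operated mice, of which 1 was above background (1.11 ± 0.24, adjusted p = 0.0027). In the deposited values, which hold only that sham-operated mouse, the log2 fold change of Gm11346 was 0.53. With the new vsn fit it was 0.17 (adjusted p = 0.28), and the call of Gm11346 is lost. Its span overlaps that of the coding gene Ripor2, whose probe was higher by 1.16 (adjusted p = 0.00081) with separate groups. 5730416F02Rik gave 9.23, 8.90, 9.26 and 9.67 against 8.58, 7.83, 8.27 and 8.07 (1.08 ± 0.22, adjusted p = 0.0020). Tubb2a-ps2, a copy of a tubulin gene, gave 9.86, 9.40, 10.10 and 9.71 against 8.88, 8.40 and 8.81 in sham-operated mice 1 to 3 (1.07 ± 0.23, adjusted p = 0.0037). The spot of sham-operated mouse 4 had an outlier mark and was dropped from this fit. In the deposited values that spot stands at 13.2, and with it the log2 fold change was -0.049. The calls of the 3 were lost without, for Gm11346, sham-operated mouse 3, for 5730416F02Rik, MI mouse 4 or sham-operated mouse 2, and for Tubb2a-ps2, MI mouse 3 or sham-operated mouse 2.

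The 4 NR probes called lower in MI mice were all well above background in all 8 mice and with separate groups. 1810014B01Rik, a transcribed pseudogene, gave 7.39, 6.37, 6.68 and 7.45 in MI mice and 8.27, 8.35, 8.42 and 8.39 in sham-operated mice. The sham-operated mice were tightly grouped and the MI mice spread over about 1 unit, with a mean 2.61-fold lower (log2 -1.39 ± 0.23, adjusted p = 0.00020). Its coding neighbour Hsp90b1, a chaperone of the endoplasmic reticulum, differed by -0.38 (adjusted p = 0.44). A330069E16Rik gave 8.20, 7.26, 7.93 and 8.0 against 8.81, 9.20, 9.01 and 8.79 (-1.11 ± 0.22, adjusted p = 0.0016), and its coding neighbour Ddb2, a DNA repair gene, differed by -0.57 (adjusted p = 0.14).

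Gm4956, a pseudogene, gave 8.63, 7.46, 8.48 and 7.92 in MI mice against 9.34, 9.18, 9.08 and 9.19 (-1.07 ± 0.24, adjusted p = 0.0036). Prr33, of lncRNA type in the annotation, gave 8.06, 7.44, 7.75 and 8.40 against 9.04, 8.70, 9.16 and 8.83 (-1.02 ± 0.22, adjusted p = 0.0036). It overlaps Lsp1 and Tnnt3, which differed by 0.49 and 0.69 in the other direction without passing the test (adjusted p = 0.18 and 0.075). MI mouse 2 was the lowest MI mouse in all 4 probes. Without it 1 probe remained called lower in place of 4, since A330069E16Rik, Gm4956 and Prr33 fell short of the limits and no other was gained. Prr33 was also lost without MI mouse 3, sham-operated mouse 1 or sham-operated mouse 3. Without MI mouse 2 the median log2 fold change of all retained probes moved as well, from 0.12 to 0.22.

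**Figure D4:**
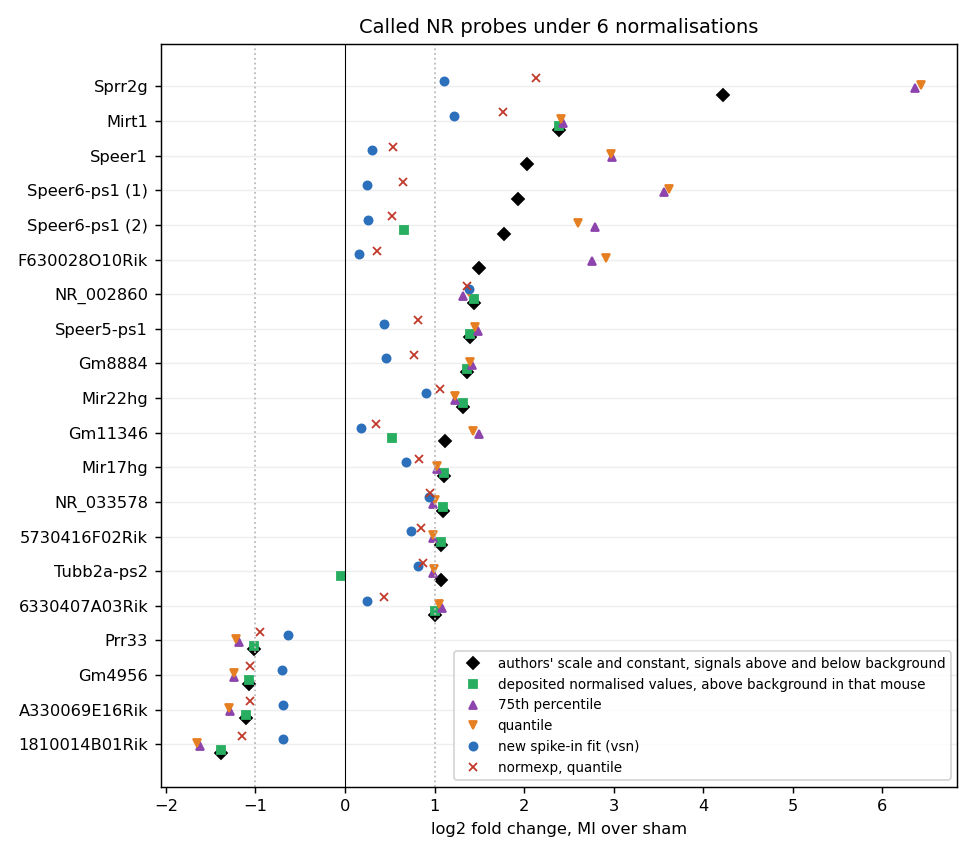
Log2 fold change (MI over sham-operated mice, horizontal axis) of the 20 called NR probes chosen by the rule for named genes under 6 normalisations, with dotted lines at 2-fold. The probes above background in all mice, such as Mirt1 (2.39, 2.43 with the 75th percentile, 1.76 with normexp), keep their side of zero in every setting, the dim ones range widely, as Sprr2g does from 1.11 to 6.44, and Tubb2a-ps2 alone crosses zero.

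Antisense transcripts were mostly dim. Of 46 probes 18 were retained, with a median log2 fold change of 0.15 and a range of -0.28 to 0.45. None passed the adjusted p in limma or SAM, and none had an unadjusted p under 0.05 in limma. For 14 of them the sense gene of the same name also had a retained probe, and both had the same sign in 9. Map2k3, a kinase upstream of p38, was the only sense gene to pass the adjusted p, higher by 1.18 (adjusted p = 0.0023). Its antisense transcript Map2k3os gave 10.91, 10.06, 10.59 and 10.45 in MI mice and 10.15, 10.21, 10.36 and 10.19 in sham-operated mice, with overlapping groups (0.27 ± 0.21, adjusted p = 0.52). Has2, which makes hyaluronan, stood at 0.63 (adjusted p = 0.078) and Has2os at 0.13 (adjusted p = 0.78). The widest spread was that of Tnk2os, where sham-operated mouse 1 stood at 7.74 and the other 7 mice between 4.82 and 5.72.

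**Figure D5:**
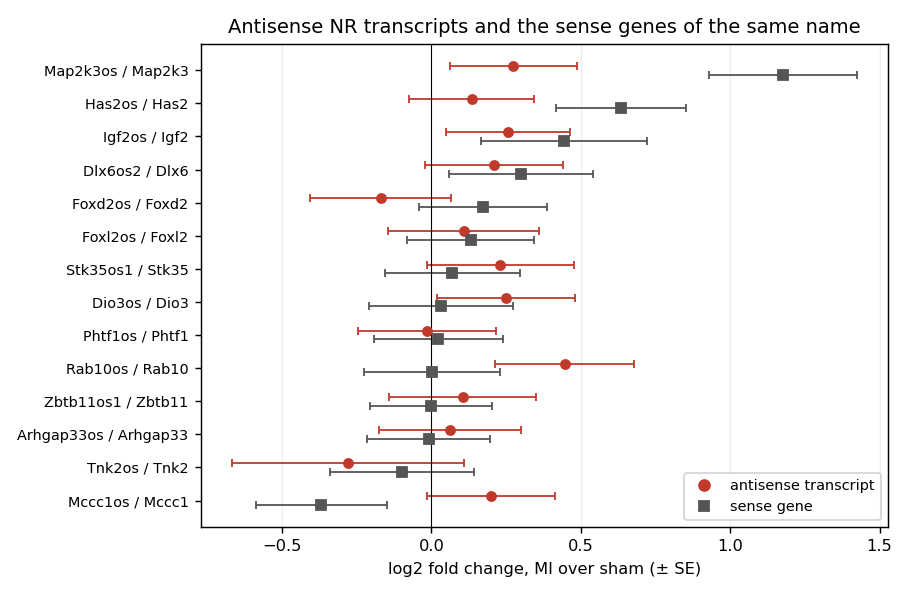
Log2 fold change (MI over sham-operated mice, horizontal axis) with its standard error for 14 antisense transcripts (red circles) and the sense genes of the same name (grey squares), n = 4 mice a group. Map2k3 stands apart at 1.18 while Map2k3os is at 0.27, and no antisense transcript passes the adjusted p.

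Of 56 well-known non-coding RNAs listed by symbol, 29 had an NR probe and 25 a retained one. Of the 25, 6 had a probe higher at the adjusted p, Mir17hg, Mir22hg, Mir100hg, Mirg, Snhg1 and Pvt1, and none a lower one, against 6.3% higher and 1.31% lower among all retained probes. Mir100hg is counted though it was above background in MI mice only. Neat1, the scaffold of nuclear paraspeckles, gave 16.07, 15.16, 15.98 and 15.06 in MI mice and 15.05, 14.26, 14.94 and 15.32 in sham-operated mice. Sham-operated mouse 4 lay among the MI mice, and the log2 fold change of 0.67 ± 0.26 did not pass (adjusted p = 0.12). The study lists NEAT1 as higher in these same mice through another probe, which is named by a genomic interval and so is not an NR probe. Malat1, of nuclear speckles, stood at 0.22 ± 0.25 (adjusted p = 0.68). Mhrt, a heart lncRNA from the locus of the myosin heavy chains, gave 12.89, 12.03, 13.03 and 12.06 in MI mice against 13.11, 12.55, 12.83 and 12.63, overlapping groups (-0.28 ± 0.24, adjusted p = 0.58). The myosin gene it overlaps, Myh7, stood at 0.53 (adjusted p = 0.23). Airn and Peg13, transcripts of imprinted regions, stood at -0.03 each in their brightest probe, Meg3 at 0.43 (adjusted p = 0.24), and Norad, a binder of Pumilio proteins, between -0.04 and 0.22 in 4 probes.

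Several probes of 1 gene are a second reading of the same transcript. Of 47 genes with more than 1 retained NR probe, 35 had the same sign in all of them, and the median range of their log2 fold changes was 0.19. Kcnq1ot1, an imprinted antisense transcript, was 1 of the discordant ones, at 0.54 (adjusted p = 0.12) and -0.27 (adjusted p = 0.67). Tug1 ranged from -0.05 to 0.68 over 3 probes, the highest at an adjusted p of 0.053. Which transcript each probe binds was not examined, since probe sequences were not used.

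Coding genes within 20000 bases of the named transcripts were also measured. Besides Ripor2, those of Snhg1 passed the adjusted p in the same direction. Slc3a2, a subunit of amino acid transporters that lies 118 bases away on the opposite strand, was higher by 0.94 (adjusted p = 0.0100), and Wdr74, 9469 bases away, by 0.74 (adjusted p = 0.031). Both had separate groups, as did Snhg1 itself with 10.14, 9.62, 10.30 and 9.34 in MI mice and 9.0, 9.07, 9.04 and 9.23 in sham-operated mice. The coding neighbours measured for 1810014B01Rik, 5730416F02Rik, 6330407A03Rik, A330069E16Rik, F630028O10Rik, Gm4956, Gm8884, Mir22hg and Prr33 did not pass.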

How the data were processed

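Cardiac RNA of 8 mice, 4 in each group and labelled as ventricles, was hybridised to Agilent SurePrint G3 arrays in 1 colour. Per the file headers, Feature Extraction 11.0.1.1 made the deposited spot intensities by subtracting local background and removing spatial trends. The authors normalised signals well above background between arrays with spike-in probes (limma and vsn) and deposited log2 values. Each array's scale and additive constant were recovered here from those log2 values (largest misfit 5e-09) and applied to every spot without an outlier flag, so that probes below background in some mice kept a value. The constants, 4.20 to 17.9, set the level of undetected probes, lowest in MI mouse 3 and sham-operated mouse 3. Probes well above background on at least 4 of 8 arrays were fitted with limma 3.58.1 (R 4.3.3), group as the only term, and the rest was computed in Python 3.11.15. A call needed over 2-fold and a Benjamini-Hochberg adjusted p under 0.05 over 34038 probes. SAM with all 70 label splits and the methods' t-test were alternatives. On 33865 simulated probes with 200 changed 4-fold, limma recovered 97.5%, SAM 98.0% and the t-test 77.5%. False calls were 8 with limma, 8 with SAM and 1 with the t-test. Changes near 2-fold, where several of the NR calls lie, were not simulated. Symbols, spans and sequences came from RefSeq (GRCm38.p6), and the array files name mm9, so array coordinates were not used. Named were, in each direction, up to 15 called probes with the largest change. Per class and direction, the 3 with the largest change that passed the adjusted p with separate groups were added. So were well-known RNAs and the NR accessions that name array probes listed by the study as changed on these mice. Other transcripts (Morrbid, Snord123, Rprl2, the snRNAs, Tnk2os, Map2k3os, Dnm3os, Snhg10, Snhg17) were picked after their values were seen. Members and lists were chosen with earlier results of these data known.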

Additional observations from a re-analysis of the deposited data

Results flagged for a closer look

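In 46 described probes, 91 groups of 4 mice were examined for a mouse far from the other 3, and 4 groups had one, while chance gives about 1 in 20. The gap to the nearest mouse was 0.904 to 0.927 of the whole range of the group. In Tug1 sham-operated mouse 2 was low at 8.02, in Snhg3 sham-operated mouse 3 was high at 11.7, in Rpph1 MI mouse 1 was high at 9.61, and in Snhg16 sham-operated mouse 1 was high at 7.34. Without sham-operated mouse 1 the log2 fold change of Snhg16 was 0.94 in place of 0.81, and the other 3 probes did not pass the adjusted p.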

How the results depend on the processing

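Counts of NR probes moved with the normalisation, and the number of arrays limits the precision. Against 18 higher and 4 lower calls, and 39 higher and 5 lower at the adjusted p alone, scaling to the 75th percentile gave 8 lower calls and 59 higher and 33 lower at the adjusted p. Quantile normalisation gave 9 lower calls and 35 lower at the adjusted p, and a median of -0.061 for other transcripts. A new vsn fit, whose constants of 166 to 256 exceed the signal of many NR probes, gave 3 higher and 0 lower calls, 20 higher at the adjusted p, 333 called among all probes in place of 1184, and 0.22 as the median of host transcripts. Normexp gave 4 higher calls, 33 lower at the adjusted p, 537 called among all probes and 0.24 as the host median. The deposited values, which hold no fold change for 6 NR probes, gave 10 higher calls and 23 higher at the adjusted p, and Tubb2a-ps2 turned to -0.049. No detection filter gave 2 lower calls and 16 higher and 2 lower at the adjusted p, and detection on all 8 arrays, which tests fewer probes, gave 10 higher calls. SAM gave 75 higher at a q under 5%. The t-test gave 7 higher and 0 lower calls, 10 and 0 at the adjusted p and 578 called among all probes, and passed no antisense transcript or small RNA after adjustment. With the replicate block, calls were 18 and 4, and 69 higher and 13 lower passed the adjusted p, while the deviations of same-numbered mice correlated by 0.24, 0.29, 0.14 and 0.01, and 2 of 4 MI mice correlated best with their own number. As 1 of the 4 pairs was under 0.1, the numbers were not taken as pairs. With 1 mouse left out, higher calls were 14 to 21, lower calls 1 to 5, and those at the adjusted p 26 to 53 and 4 to 7. Of the calls, 18 were shared with the 75th percentile and 14 with the deposited values. Unless named, the cause of a change was not tested.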

Other observations

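Some transcripts outside the rule for named probes had an adjusted p under 0.05 and separate groups, and were picked after their values were seen. Dancr, a lncRNA known for holding cells undifferentiated, gave 10.56, 10.03, 10.58 and 9.80 in MI mice and 9.42, 9.24, 9.41 and 9.22 in sham-operated mice (log2 fold change 0.92 ± 0.22 SE, adjusted p = 0.0069 in limma). Dubr stood at 0.90 ± 0.22 (adjusted p = 0.0093) and 1110038B12Rik at 0.80 ± 0.20 (adjusted p = 0.011). Tyms-ps, a copy of the thymidylate synthase gene, stood at 0.73 ± 0.21 (adjusted p = 0.030), with 7.73, 7.32, 7.82 and 7.99 against 6.90, 7.16, 7.06 and 6.85. All of these are under 2-fold.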
